A study of Danio rerio with 14 samples.

Results

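The genes described here are 10 markers of phagocytes, the white blood cells that engulf microbes and dead tissue: spi1b, csf1ra, marco, fcer1gl, lcp1, coro1a, cyba, cybb, mpx and lyz. They were chosen by name, as genes widely used to mark macrophages, neutrophils or both, with earlier results of these data known. All 10 were found among the 31014 features of the deposited expression tables. RNA was sequenced from the lateral rectus (LR) muscle, an eye muscle of adult zebrafish, either uninjured (CON, 4 libraries) or after partial removal of the muscle, at 9 h (H9, 5 libraries) and 18 h (H18, 5 libraries) post injury (hpi). All 14 libraries carry the genotype label actin:GFP, so the controls share the transgene with the injured groups. Each library came from pooled fish whose LR tissue was cut from frozen head sections with a laser, so it holds RNA of every cell type within the cut area.

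Neutrophils and macrophages are the main phagocytes of zebrafish, as of mammals. After a wound, neutrophils leave the blood first and release granule enzymes and oxidants, and macrophages follow, take up debris and dying cells, and release signals that shape repair. Both arise from myeloid precursors under the transcription factor Pu.1, both crawl by rebuilding their actin skeleton, and both carry the NADPH oxidase, a membrane enzyme that makes superoxide.

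Expression is given as FPKM (fragments per kilobase of transcript, scaled for library size, so that a level is corrected for gene length), with 1 value per group that the authors computed over the group's libraries. No value per library was used, so no FPKM here has an SD or a test, depth per library was not used, and whether a difference exceeds the spread between libraries was not tested. Fold changes are on the scale log2(FPKM + 0.1), which understates the change of genes with low levels. A gene is called higher or lower when this scale differs by more than 1.5-fold, a size of difference and not a test. For background, the same calls were made over the 13447 features with a mean of at least 1 FPKM over the 3 groups, and all 10 marker genes are among them.

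In the uninjured muscle the 10 genes together summed to 90.8 FPKM, and the sums were 359 FPKM in H9 and 375 FPKM in H18. In CON vs. H9, 9 of the 10 were past 1.5-fold higher in H9 and 0 were lower, where 34.9% of all background features were higher and 31.4% lower. In CON vs. H18, 9 of 10 were again higher and 0 lower, beside 32.8% higher and 34.7% lower among the background features. The gene between the limits was lyz in the first comparison and cybb in the second. As the genes were chosen with earlier results known, these counts are a description and not a test. The genes lcp1, mpx and lyz were below 1 FPKM in CON and passed the filter only through injured groups, lyz only through H18. Their higher calls are thus not independent of the filter. With no filter 9 of the 10 were again higher at both times. Without it, 30.9% of all features were higher in H9 and 26.5% in H18. The median log2 difference of the 10 genes from CON was 2.198 at 9 hpi and 2.28 at 18 hpi, and the medians of all background features were 0.09 and -0.01. These are pieces of tissue, so more phagocytes in the muscle and more of these RNAs per phagocyte cannot be told apart. The comparisons CON vs. H9 and CON vs. H18 use the same uninjured libraries.

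**Figure D1:**
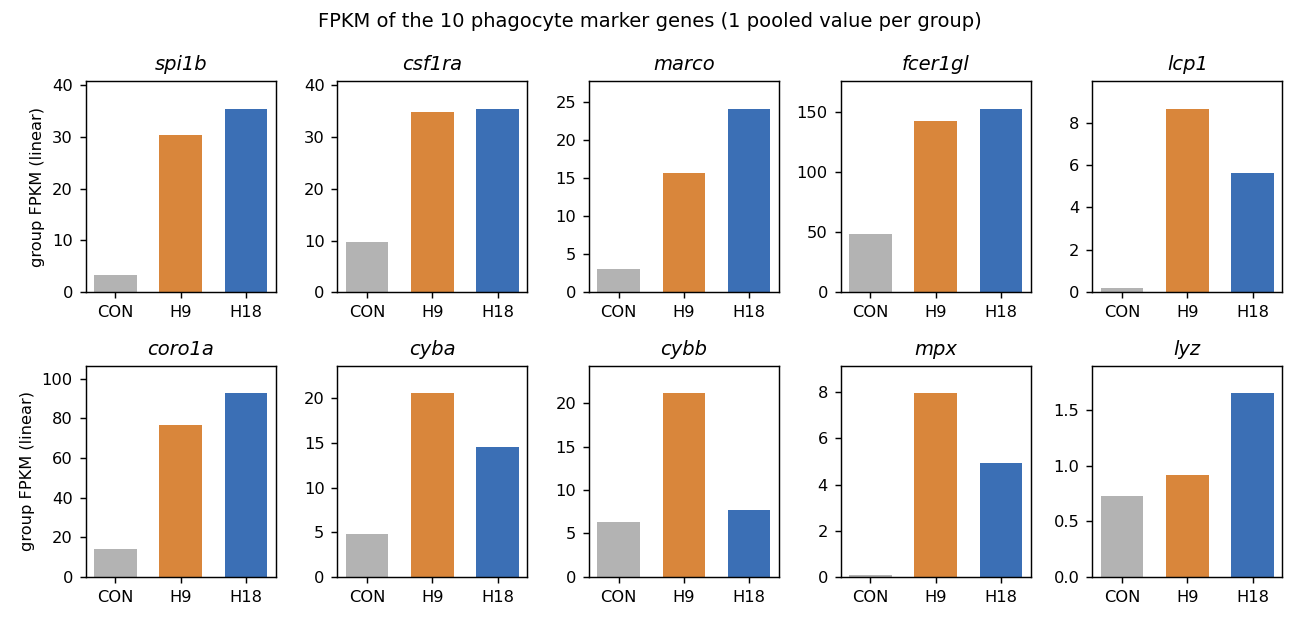
Group FPKM of each of the 10 phagocyte marker genes in CON, H9 and H18, on linear axes that start at 0 and differ between panels; each bar is the authors' value for the group, with no error available. CON is the lowest bar in every panel, and the tallest is H9 for lcp1, cyba, cybb and mpx and H18 for the other 6, an order of H9 and H18 that turns with another scaling for spi1b, csf1ra, fcer1gl and coro1a.

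FPKM is a relative level, scaled by the authors to the upper quartile of each library, and other RNAs differed in the same comparisons. Of 24 listed muscle genes, 23 were in the background set, and 22 of these were lower in H9 and 22 in H18, with median log2 differences of -2.50 and -3.32. Among all background features 31.4% were lower in H9 and 34.7% in H18. All 24 muscle genes together summed to 17533 FPKM in CON, 2212 FPKM at 9 hpi and 1177 FPKM at 18 hpi, so the uninjured tissue carried the markers its label calls for. As examples, ckma, the muscle creatine kinase, was at 2321, 291 and 167 FPKM in CON, H9 and H18, and atp2a1, the calcium pump of fast fibers, at 3434, 319 and 110 FPKM. The lowest log2 differences were those of the troponin genes tnnc2, at 399, 29.2 and 20.7 FPKM, in H9 and tnni2a.4, at 9.51, 2.78 and 0.150 FPKM, in H18, and the highest in both was that of tnnt3a, at 1.29, 1.12 and 2.15 FPKM. The part of the lower muscle RNA in the higher FPKM of the phagocyte genes was not tested. Scaling the groups to equal FPKM sums without the 3 most abundant features, which held 77.7%, 76.4% and 82.9% of the summed FPKM in CON, H9 and H18, moved the median of all background features to 0.28 from CON to H9, -0.26 from CON to H18 and -0.58 from H9 to H18. All 10 phagocyte marker genes stayed above 0 against CON at both times under this scaling and when centred on the median feature. The other alternatives could not turn the sign of a gene. An offset keeps it, and the other fold, the filters and the second set of tables left each value of the 10 genes unchanged.

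The first 2 genes set and maintain the phagocyte fate. Gene spi1b (Entrez 30117, chromosome 7, 32358519 to 32388221, GRCz10) encodes Pu.1, the ETS transcription factor that drives myeloid precursors to become macrophages and neutrophils. It was at 3.26 FPKM in CON, 30.3 FPKM in H9 and 35.4 FPKM in H18. These levels are 9.27 times the CON level in H9 and 10.9 times in H18, log2 differences of 3.17 and 3.40. Among the background features, 97.4% had a smaller log2 difference than spi1b in CON vs. H9. The locus overlaps that of si:ch73-314g15.3, which was at 1.66, 0.847 and 1.79 FPKM, and reads of overlapping genes may be split between them. Its relative spi1a, a second Pu.1 gene of zebrafish, was at 2.14, 13.8 and 10.1 FPKM, with log2 differences from CON of 2.64 and 2.18. Another relative, spic, which in mammals serves macrophages that recycle red blood cells, was at 1.49 FPKM in CON and listed at 0 in H9 and H18.

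Gene csf1ra (Entrez 64274, chromosome 14, 3170823 to 3202038) encodes the receptor for colony stimulating factor 1 and interleukin 34, on which macrophages depend. In zebrafish it is also active in yellow pigment cells. Its levels were 9.66 FPKM in CON, 34.9 FPKM in H9 and 35.5 FPKM in H18, which is 3.62 and 3.68 times CON (log2 1.84 and 1.87). The ratio of spi1b to csf1ra was 0.338 in CON, 0.866 at 9 hpi and 0.998 at 18 hpi, so the transcription factor gene stood well below the receptor gene only in the uninjured value. The duplicate receptor gene csf1rb was at 0.596, 2.42 and 2.46 FPKM, with log2 differences of 1.86 and 1.88 from CON. None of the ligand genes csf1a, csf1b and il34 passed the background filter, and the highest of their values was 0.0422 FPKM, for il34 in H18. Of the receptor's closest kinase relatives, pdgfra was at 5.98, 10.3 and 9.58 FPKM and pdgfrb at 13.2, 17.6 and 17.0 FPKM, while kita, kitb and flt3 did not reach a mean of 1 FPKM.

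Gene marco (Entrez 571584, chromosome 9, 796045 to 813950) encodes a scavenger receptor by which macrophages bind bacteria and particles. It was at 3.03 FPKM in CON, 15.6 FPKM in H9 and 24.2 FPKM in H18. It was 5.15 times CON in H9 and 7.96 times in H18, with log2 differences of 2.33 and 2.95. Among the related scavenger receptor genes, scara3 was at 3.38, 1.14 and 1.76 FPKM, scara5 at 2.26, 0.411 and 1.92 FPKM, and colec12 at 4.27, 3.07 and 3.62 FPKM. These 3 relatives had their highest value in CON, where marco had its lowest. Of all 15 listed relatives of Spi1, Csf1ra, Marco and Cybb, 7 were in the background set, with 3 higher and 2 lower in H9 (median 0.42) and 3 higher and 1 lower in H18 (median 0.37). Among all background features 34.9% were higher and 31.4% lower in H9, and 32.8% and 34.7% in H18. With equal FPKM sums 4 were higher and 2 lower in H9 (median 0.61), and 2 higher and 1 lower in H18 (median 0.11). Under that scaling 40.6% of all background features were higher and 27.7% lower in H9, and 26.7% and 41.1% in H18. The higher genes include nox4, which was listed at 0 in CON and passed the filter only through H9 and H18.

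Gene fcer1gl (Entrez 100101653, chromosome 2, 57505504 to 57512991) is named for its likeness to the gamma chain of Fc receptors, which in mammals is an adaptor that passes the signal of bound receptors to the kinase Syk. It was the most abundant of the 10 in every group, at 48.5 FPKM in CON, 142 FPKM in H9 and 153 FPKM in H18. The H9 and H18 values are 2.93 and 3.14 times CON (log2 1.55 and 1.65), and in H9 99.4% of all features had a lower FPKM. The paralog fcer1g was between the limits in all 3 comparisons, at 25.0, 23.01 and 27.6 FPKM, and the ratio of fcer1gl to fcer1g was 1.94 in CON, 6.17 at 9 hpi and 5.52 at 18 hpi. Reads of similar paralogs can be shared between them by the counting.

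Of 12 listed genes that act with such receptors, 9 were in the background set, and 8 of these were higher in H9 and 8 in H18, with fcer1g as the exception in both. The medians were 1.98 and 1.95, and 34.9% of all background features were higher in H9 and 32.8% in H18. The largest difference of this list was in hck, a Src family kinase of phagocytes, at 2.39, 16.2 and 21.7 FPKM (log2 2.71 and 3.13). The gene syk was at 1.96, 9.27 and 5.40 FPKM. The phosphatase gene ptpn6, which restrains these receptors, was at 7.52, 24.3 and 33.6 FPKM. The adaptor gene tyrobp was below 0.5 FPKM throughout, at 0, 0.490 and 0.0203 FPKM. The remaining genes in the set, lyn, blnk, plcg2, btk and inpp5d, were between 0.532 and 3.32 FPKM in CON and between 2.28 and 10.4 FPKM in H9. Of these, btk was below 1 FPKM in CON and passed the filter only through injured groups.

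The actin genes of the group act in crawling and engulfment. Gene lcp1 (Entrez 30583, chromosome 9, 56663225 to 56670983) encodes L-plastin, which bundles actin filaments in white blood cells. It was at 0.187 FPKM in CON, 8.66 FPKM in H9 and 5.64 FPKM in H18. These levels are 46.3 and 30.2 times the CON level, with log2 differences of 4.93 and 4.32. The CON level is near the offset of 0.1 FPKM, so the size of the difference depends on that offset: with an offset of 1 FPKM the log2 differences were 3.02 and 2.48. In CON 37.3% of all features had a lower FPKM than lcp1, and in H9 92.0% did.

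Gene coro1a (Entrez 100002113, chromosome 3, 30790553 to 30810447) encodes coronin 1A, an actin-binding protein of white blood cells. It was at 14.2 FPKM in CON, 76.7 FPKM in H9 and 92.6 FPKM in H18, or 5.39 and 6.51 times CON (log2 2.42 and 2.69). Together, fcer1gl and coro1a made up 69.1% of the summed FPKM of the 10 genes in CON, 61.0% in H9 and 65.4% in H18. The locus overlaps that of cldni, a claudin gene of cell junctions, which was at 1.87, 1.40 and 0.331 FPKM.

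Of 10 listed plastin and coronin genes, 6 were in the background set, of which 2 were higher and 2 lower in each of H9 and H18, shares near those of all background features (34.9% higher and 31.4% lower in H9, 32.8% and 34.7% in H18), with medians of 0.26 and 0.20 (0.45 and -0.05 with equal FPKM sums). The higher genes were coro1ca, at 5.82, 18.8 and 22.3 FPKM, and coro7, at 1.02, 2.198 and 3.91 FPKM. The lower ones were coro6, at 15.7, 0.739 and 0.824 FPKM (log2 -4.24 and -4.10), and coro1cb, at 9.23, 6.02 and 3.24 FPKM. Since coro6 passed the filter only through CON, its lower calls follow at least in part from the filter. The plastin gene pls3, active in many solid tissues, was at 6.95, 7.30 and 8.90 FPKM, and coro2bb was at 2.87, 3.95 and 2.98 FPKM. In CON, coro6 and coro1a were at similar levels, and in H18 coro1a was at 92.6 FPKM and coro6 at 0.824 FPKM. The other 4, pls1, coro1b, coro2a and coro2ba, did not reach a mean of 1 FPKM.

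**Figure D2:**
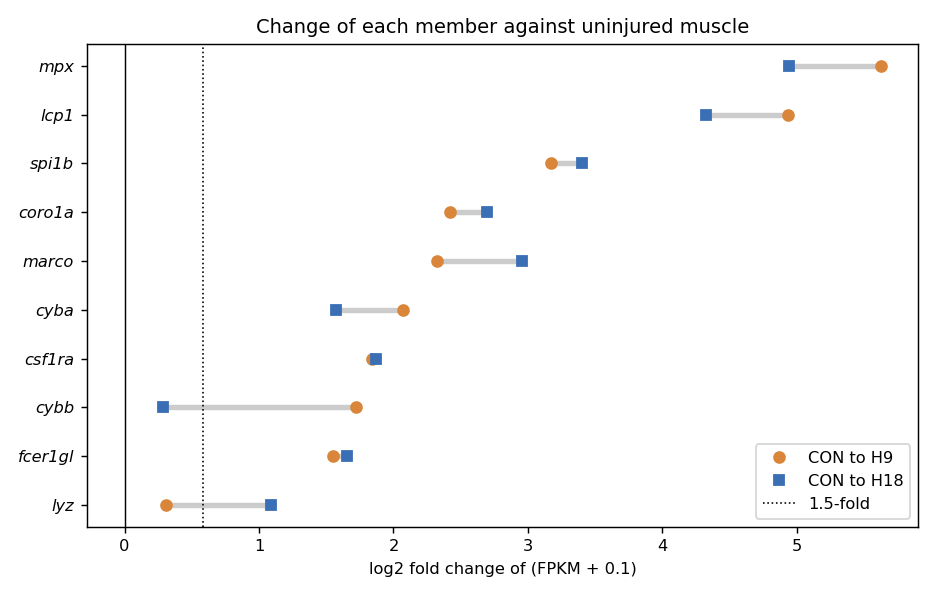
Log2 difference of (FPKM + 0.1) from CON for each of the 10 genes, as circles for H9 and squares for H18, joined by grey bars; the dotted line marks 1.5-fold. All 20 points lie above 0, lyz is inside the line in H9 and cybb in H18, and mpx and lcp1, the 2 genes below 0.5 FPKM in CON, lie farthest right.

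The NADPH oxidase has a membrane core of 2 subunits. Gene cybb (Entrez 393386, chromosome 11, 29547976 to 29571050) encodes the catalytic subunit gp91phox. It was at 6.34 FPKM in CON, 21.1 FPKM in H9 and 7.73 FPKM in H18. The H9 value was 3.34 times CON (log2 1.72), and the H18 value 1.22 times CON (log2 0.28), short of the 1.5-fold limit. From H9 to H18 the log2 difference was -1.44, and 5.40% of background features had a lower one. Of the 10 genes, cybb was the only one at H18 within 1.5-fold of its CON level.

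Gene cyba (Entrez 393551, chromosome 18, 31094933 to 31097288) encodes p22phox, the partner that holds the catalytic subunit in the membrane. It was at 4.82 FPKM in CON, 20.5 FPKM in H9 and 14.5 FPKM in H18, which is 4.26 and 3.02 times CON (log2 2.07 and 1.57). The H9 to H18 difference of -0.50 was just inside 1.5-fold. The ratio of cybb to cyba was 1.32 in CON, 1.03 at 9 hpi and 0.532 at 18 hpi. Both had their highest value in H9, and at H18 cyba stood well above its CON value and cybb close to it.

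Of 5 listed partners of the oxidase, 4 were in the background set, and all 4 were higher in H9 and in H18, with medians of 2.996 and 2.28. Among all background features 34.9% were higher in H9 and 32.8% in H18. The organizer ncf1 (p47phox) was at 1.02 FPKM in CON, 9.95 FPKM in H9 and 4.43 FPKM in H18. The GTPase gene rac2, of blood cells, was at 4.11, 29.7 and 24.5 FPKM. From H9 to H18, ncf1 was past 1.5-fold lower (log2 -1.15), as cybb was, and the other 3 lay between the limits (with equal FPKM sums 3 of the 4 were past it). Among all background features 24.7% were lower from H9 to H18, and 49.6% with equal FPKM sums. The cytosolic subunit gene ncf4 (p40phox) was at 2.42, 4.83 and 4.41 FPKM, the smallest difference of the list in both comparisons (log2 0.97 and 0.84). The gene noxo1a, whose mammalian counterpart organizes a related oxidase, was at 0.0922, 1.96 and 1.595 FPKM, and noxo1b stayed below 0.1 FPKM. Since noxo1a passed the filter only through H9 and H18, its higher calls follow from the filter. As the highest of the list, noxo1a also lifted the medians. Among relatives of the catalytic subunit, nox4 was listed at 0 in CON and was at 1.73 and 2.34 FPKM in H9 and H18, and nox1, nox5 and duox were below 0.1 FPKM in every group.

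**Figure D3:**
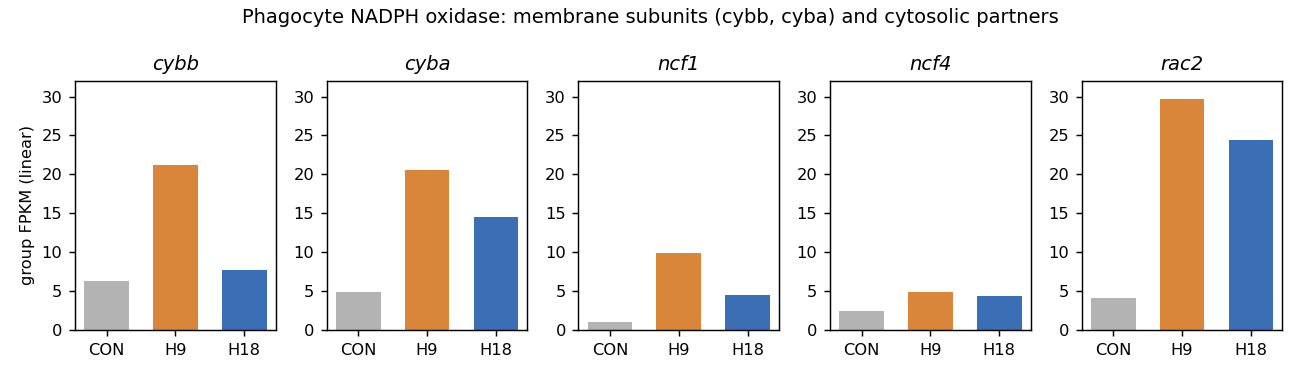
Group FPKM of the membrane subunits cybb and cyba and of the cytosolic partners ncf1, ncf4 and rac2 of the phagocyte NADPH oxidase, on one linear scale; each bar is the authors' value for the group, with no error available. Every gene is lowest in CON; cybb is at 21.1 FPKM in H9 and 7.73 FPKM in H18, while rac2 is at 29.7 and 24.5 FPKM.

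The last 2 genes encode products of neutrophil granules. Gene mpx (Entrez 337514, chromosome 10, 7779840 to 7827254) encodes myeloperoxidase, the enzyme that turns hydrogen peroxide into hypochlorous acid and the standard neutrophil marker in zebrafish. It was at 0.0635 FPKM in CON, 7.96 FPKM in H9 and 4.92 FPKM in H18. These are 125 and 77.5 times the CON level, and the log2 differences of 5.62 and 4.94 were the largest of the 10 genes. Its CON level is below the offset, and the log2 differences were 3.07 and 2.48 with an offset of 1 FPKM and 6.76 and 6.07 with 0.01 FPKM. In CON 29.3% of all features had a lower FPKM than mpx, and in H9 91.2% did. The locus overlaps that of lox, the gene of a collagen crosslinking enzyme, which was at 1.22, 1.51 and 0.382 FPKM.

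Gene lyz (Entrez 677744, chromosome 24, 23890689 to 23893609) encodes lysozyme, which cuts bacterial cell walls and in zebrafish marks neutrophils and some macrophages. It was at 0.723 FPKM in CON, 0.920 FPKM in H9 and 1.65 FPKM in H18. The H9 value was 1.27 times CON (log2 0.31), with 56.7% of background features lower than that, and the H18 value 2.28 times CON (log2 1.09). At H9 and H18 lyz had the lowest FPKM of the 10. The neutrophil genes mpx and lyz did not follow each other: the ratio of lyz to mpx was 11.4 in CON, 0.116 at 9 hpi and 0.335 at 18 hpi. The CON ratio rests on 2 low values, mpx being at 0.0635 FPKM there, below the offset.

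The 10 genes were also compared between the injured groups. From H9 to H18, 2 were past 1.5-fold higher (marco and lyz), 3 were lower (cybb, mpx and lcp1) and 5 lay between, whereas with equal FPKM sums 0 were higher and 4 lower. Among background features 15.5% were higher and 24.7% lower, so the counts of the 10 genes were near the background shares. That split depended on scaling: centred on the median feature it was 20.0% higher and 18.7% lower, and with equal FPKM sums it was 7.73% higher and 49.6% lower. The median of the 10 genes was 0.06, against -0.15 for all background features, and -0.39 with equal FPKM sums. At the edge of the limit, lcp1 was at -0.61 and cyba at -0.50. The gene lyz was above 1 FPKM only in H18, so its higher call is not independent of the filter.

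The 6 genes with a difference of the same sign under all alternatives were marco (0.63, between 0.18 and 0.77 over the alternatives), lyz (0.78, between 0.36 and 0.93), cybb (-1.44, between -1.89 and -1.29), mpx (-0.68, between -1.13 and -0.54), lcp1 (-0.61, between -1.05 and -0.46) and cyba (-0.50, between -0.94 and -0.35). Only the centring and the equal FPKM sums could turn the sign of a gene. The other 4 were above 0 in the deposited FPKM and below 0 with equal FPKM sums. For coro1a the values were 0.27 and -0.18, and for spi1b 0.23 and -0.22. For fcer1gl they were 0.10 and -0.35, and for csf1ra 0.02 and -0.43. The ratio of mpx to marco, the neutrophil enzyme over the macrophage receptor, does not depend on the scaling of the groups and was 0.0209 in CON, 0.509 at 9 hpi and 0.204 at 18 hpi. In CON the ratio rests on a mpx level below the offset. The ratio is that of 1 pair of genes, and lyz, the other granule gene, had the opposite sign to mpx from H9 to H18.

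Longer lists of markers, also chosen with earlier results of these data known, were read beside the 10 genes. Against CON, the shares of all background features were 34.9% higher and 31.4% lower in H9, and 32.8% and 34.7% in H18. From H9 to H18 they were 15.5% and 24.7%, and 7.73% and 49.6% with equal FPKM sums. Of 16 listed neutrophil genes, 13 were in the background set. In CON vs. H9, 12 were higher and 1 lower (median 2.48), and in CON vs. H18, 10 were higher and 2 lower (median 2.02). Of the 13, mmp13a, mmp13b, cxcr1, lect2l and adam8a were below 1 FPKM in CON and passed the filter only through injured groups. Their higher calls follow at least in part from the filter and lift these counts. Of these, mmp13b (0.664, 3.08 and 0.314 FPKM) passed through H9 alone and was lower in H18 than in CON. Its lower call from H9 to H18 also follows at least in part from the filter. With no filter the medians were 2.48 and 1.82. All 16 together summed to 56.0 FPKM in CON, 300.0 FPKM at 9 hpi and 214 FPKM at 18 hpi. The most abundant was cebpb in CON and H9, at 30.2 and 97.9 FPKM, and adam8a in H18, at 79.1 FPKM. From H9 to H18, 1 of the 13 was higher, 10 were lower and 2 lay between (0 higher and 11 lower with equal FPKM sums), with a median of -0.84 that stayed below 0 under all alternatives (between -1.29 and -0.70).

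The largest neutrophil list difference in CON vs. H9 was that of mmp13a, a collagenase gene, at 0.141, 15.3 and 3.21 FPKM. In CON vs. H18 it was adam8a, a membrane protease gene, at 0.783, 50.9 and 79.1 FPKM, which was also the gene higher in H18 than in H9. The lowest in both was padi2, an enzyme that modifies arginine, at 5.56, 1.84 and 1.01 FPKM. Chosen after their values were seen, csf3r, the receptor for granulocyte colony stimulating factor, was at 3.09, 36.7 and 20.1 FPKM, and npsn, a neutrophil protease gene, at 2.40, 13.9 and 10.04 FPKM. The list is not pure, since mmp13a, mmp9 and cebpb are also made by other cell types.

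Of 24 listed macrophage genes, 21 were in the background set. In CON vs. H9, 17 were higher and 2 lower (median 1.14), and in CON vs. H18, 19 were higher and 1 lower (median 2.18). Of the 21, slc7a7, csf1rb and p2ry12 were below 1 FPKM in CON and passed the filter only through injured groups. Their higher calls follow at least in part from the filter. With no filter the medians were 1.12 and 2.18. All 24 together summed to 159 FPKM in CON, 537 FPKM at 9 hpi and 1068 FPKM at 18 hpi. The most abundant was apoeb in CON, at 55.6 FPKM, and ctss2.1 in H9 and H18, at 138 and 361 FPKM. In H18, grn1 at 122 FPKM and apoeb at 121 FPKM followed, so a few genes weigh most in that sum. Whether other cells of the tissue made these RNAs was not tested. From H9 to H18, 14 of the 21 were higher, 0 lower and 7 between (7 higher and 2 lower with equal FPKM sums), with a median of 0.82 that stayed above 0 under all alternatives (between 0.37 and 0.97). Over the same interval mpx was at -0.68 and marco at 0.63, while csf1ra, also a macrophage gene, was at 0.02 (-0.43 with equal FPKM sums).

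The largest macrophage list difference in both comparisons was that of slc7a7, an amino acid transporter gene, at 0.499, 23.3 and 44.6 FPKM (log2 5.29 and 6.22). The lowest in both was timd4, a receptor for dying cells on resident macrophages of mammals, at 5.05, 1.71 and 1.31 FPKM. Chosen after their values were seen, mpeg1.1, a pore-forming protein gene used to label macrophages, was at 4.37, 8.91 and 24.3 FPKM, and c1qb, a complement gene, at 13.8, 27.1 and 53.7 FPKM. The apolipoprotein gene apoc1, also chosen so, was at 1.53, 2.07 and 28.5 FPKM, the largest difference of the list from H9 to H18 (log2 3.72). Other genes of the list went the other way. The second gene lower in H9, apoeb, was at 55.6, 25.7 and 121 FPKM. From H9 to H18, 3 genes were below 0, all between the limits: timd4, mertka (2.70, 5.37 and 3.69 FPKM) and lgals3bpb (9.13, 33.1 and 30.2 FPKM).

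**Figure D4:**
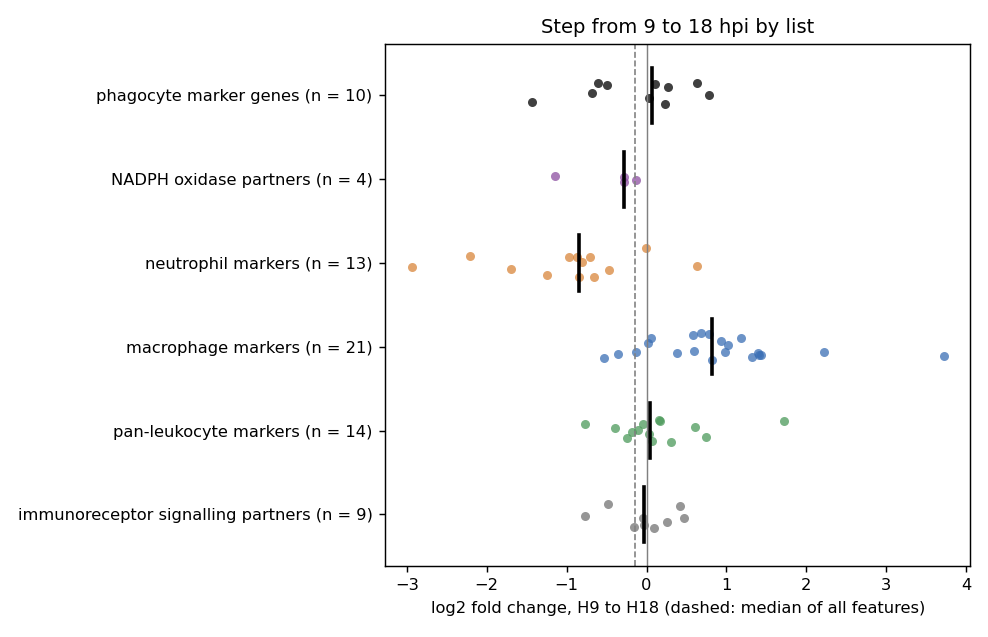
Log2 difference of (FPKM + 0.1) from H9 to H18, 1 point per gene, for the 10 phagocyte marker genes and 5 other lists; black bars are list medians and the dashed line is the median of all background features (-0.15). The neutrophil median lies at -0.84 and the macrophage median at 0.82, and the median of the 10 genes lies between them at 0.06, a value that is -0.39 with equal FPKM sums.

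Markers shared by all white blood cells and those of lymphocytes were read last. Of 18 listed pan-leukocyte genes, 14 were in the background set, with 11 higher and 0 lower in H9 (median 1.47) and 10 higher and 0 lower in H18 (median 1.75). From H9 to H18, 3 were higher and 1 lower, with a median of 0.05. With equal FPKM sums 1 was higher and 4 were lower, with a median of -0.40. Among all background features 34.9% were higher and 31.4% lower in H9, and 32.8% and 34.7% in H18. Over the step from H9 to H18 the shares were 15.5% and 24.7%, so the count of higher genes was near its share. With equal FPKM sums these shares were 7.73% and 49.6%. The genes plek, wasb and il10ra were below 1 FPKM in CON and passed the filter only through injured groups. The gene ptprc, which encodes the common leukocyte antigen CD45 and was chosen after its values were seen, was at 2.52, 8.50 and 8.88 FPKM. The largest difference was that of plek (pleckstrin), at 0.929, 12.98 and 21.8 FPKM, and the smallest that of tal1, a blood stem cell factor, at 1.44, 1.71 and 1.28 FPKM.

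Of 20 listed lymphocyte genes, 7 were in the background set, with 1 higher and 3 lower in H9 (median -0.41) and 1 higher and 4 lower in H18 (median -1.16). Among all background features 34.9% were higher and 31.4% lower in H9, and 32.8% and 34.7% in H18. The 3 lower in H9, rag1, lck and tbx21 (4.64, 0.846 and 0.911 FPKM), were above 1 FPKM only in CON. They passed the filter through CON, so these counts and medians cannot show a lower lymphocyte level. The 17 matched genes of the list summed to 28.0 FPKM in CON, 12.9 FPKM at 9 hpi and 12.6 FPKM at 18 hpi. The lowest was rag1, the recombinase gene of immature lymphocytes, at 5.30, 0.183 and 0.269 FPKM, and, chosen after their values were seen, lck, a T cell kinase gene, was at 3.17, 0.178 and 0.257 FPKM and cd28, a T cell receptor partner, between the limits at 3.14, 2.34 and 2.73 FPKM. The gene that was higher, blnk, is an adaptor of B cells that also stands in the receptor partner list above, at 1.12, 4.73 and 4.62 FPKM.

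**Figure D5:**
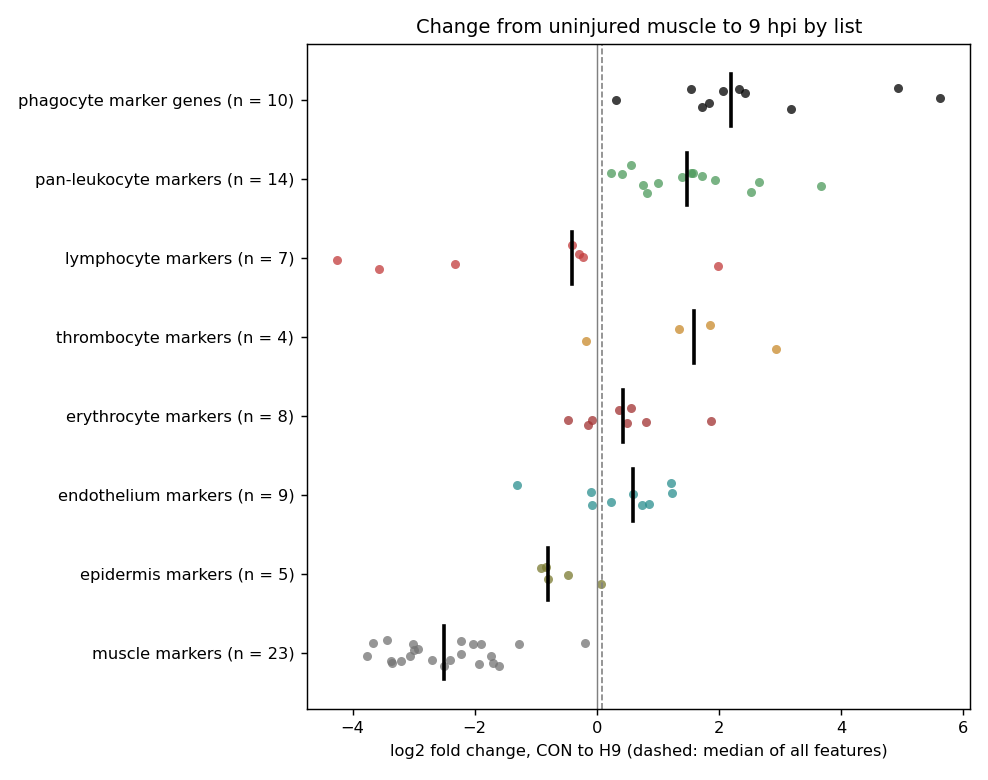
Log2 difference of (FPKM + 0.1) from CON to H9, 1 point per gene, for the 10 phagocyte marker genes, the pan-leukocyte list and lists for lymphocytes, thrombocytes, erythrocytes, endothelium, epidermis and muscle; black bars are list medians and the dashed line is the median of all background features (0.09). The 10 genes have a median of 2.198, lymphocyte markers -0.41 and muscle markers -2.50. The 3 lowest lymphocyte points passed the filter of a mean of 1 FPKM only through their CON level.

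The features whose pattern lay nearest to the median pattern of the 10 genes were sought among 4435 features with a mean of at least 5 FPKM, leaving out all listed genes and features without a symbol, as the straight-line distance over the 2 log2 differences from CON. The 5 nearest were si:ch211-217k17.7 (distance 0.0213), the sodium/hydrogen exchanger 1-like LOC101885761 (0.0284), the fermitin family member 3a LOC101887167 (0.0352), rcc2 (0.0436) and zgc:153184 (0.0513). The nearest, si:ch211-217k17.7, was at 2.51, 11.98 and 12.4 FPKM in CON, H9 and H18. The match rests on 3 group values and says nothing of shared cells.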

How the data were processed

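The libraries were made by the authors from ribosome-depleted total RNA with a stranded kit and read on an Illumina HiSeq. Per the submitters' notes, the tools were FastQC 0.11.3, TopHat2 2.0.13, Bowtie2 2.2.1, Cufflinks and Cuffdiff 2.2.1 with GRCz10. The alignment settings named do not state strand, so reads of a gene and an antisense partner may not be told apart.

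The values used are the FPKM per group that the authors deposited, computed over the libraries of each group with upper-quartile normalization and correction for reads with several matches. The deposited tables also hold the authors' fold changes, test statistics, p-values, q-values, differential expression calls and gene ontology terms, and none of these were used. The deposited count table has 14 columns with names that match no sample label. Those 14 columns were not used, so the tests on counts per library planned for these genes were not run, and no depth or replicate error is given.

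From the FPKM, log2 ratios were computed with 0.1 added and set against a 1.5-fold limit over the 13447 features with a mean of at least 1 FPKM (Python 3.11.15, numpy 2.4.6, pandas 2.3.3, matplotlib 3.10.9). The step was checked on simulated data with planted differences and no noise. That check does not bear on genes near the offset or on the spread between libraries. The FPKM of 12 features differed between tables, 0 of them among the 10 genes, and the first table listing them was used. The 10 genes and 14 other gene lists were chosen with earlier results of these data known, and a partner gene of the oxidase is not reported here. Of 203 listed symbols 195 matched, 170 by symbol and 25 by Entrez number through a RefSeq gene table for another assembly (GRCz12tu), which was used for names only. Coordinates come from the files (GRCz10, 1-based). Named genes are all 10 markers, all genes in the set of the partner, ligand and relative lists, the highest and lowest of every other list against CON, the tissue markers and the 5 features of nearest pattern. Others were chosen after their values were seen, and not all are marked so where they are named. The unmarked ones were named for their abundance or for the sign of a difference. Among them are cebpb, ctss2.1, grn1, apoeb, mertka, lgals3bpb, hbaa1 and tbx21. Alternatives were an offset of 1 or 0.01 FPKM, a fold of 2, no filter or a mean of at least 5 FPKM, centring on the median feature, equal FPKM sums without the top 3 features, the second set of tables, and, chosen after seeing the data, leaving out lcp1 and mpx.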

Additional observations from a re-analysis of the deposited data

How the results depend on the processing

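The count of phagocyte genes past the limit in H9 vs. H18 was 5. It was 3 with an offset of 1 FPKM, 1 at a fold of 2 and 3 when centred on the median feature. With a mean of at least 5 FPKM, where lcp1, mpx and lyz are left out, it was 2. It was 3 without lcp1 and mpx, the genes under 0.5 FPKM in CON, an alternative chosen after seeing the data. The shares of all background features also changed, from 15.5% higher and 24.7% lower to 10.8% and 16.2% with an offset of 1 FPKM. They were 7.97% and 11.3% at a fold of 2, and 14.8% and 23.3% with a mean of at least 5 FPKM. When centred they were 20.0% higher and 18.7% lower. At the larger offset and fold, calls were thus fewer among all features too. The count of 9 against CON, at 9 hpi and at 18 hpi, stayed within 1.5 times under the alternatives run. Without lcp1 and mpx the medians were 1.96, 1.76 and 0.17 from CON to H9, CON to H18 and H9 to H18. No paired analysis was possible because the group FPKM carry no replicate numbers and the columns of the count table match no sample label. For the same reason the count tests, their second tool, other count normalization and filter, and the fits that leave out a replicate were not run.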

Other observations

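Markers of other cells that the cut tissue could hold gave these values, and their part in the levels of the phagocyte genes was not tested. Of 7 thrombocyte genes, the nucleated platelets of fish, 4 were in the background set, with median log2 differences of 1.598 from CON to H9, -0.70 from CON to H18 and -1.64 from H9 to H18. The coagulation factor XIII gene f13a1a.1, which macrophages of mammals also make and which was chosen after its values were seen, held most of their sum, at 63.9, 163 and 32.9 FPKM. The highest log2 differences from CON were those of gp9 (0.467, 4.24 and 0.315 FPKM) in H9 and itgb3b (0.821, 3.21 and 2.50 FPKM) in H18, and the lowest in both was that of gp1bb (4.56, 4.002 and 1.999 FPKM). Both gp9 and itgb3b were below 1 FPKM in CON and passed the filter only through injured groups. For gp9 this was H9 alone, so its difference from H9 to H18 (log2 -3.39) also follows at least in part from the filter. Of 18 erythrocyte genes 8 were in the set, with medians of 0.43, -0.53 and -0.92, the highest in both being epor (0.713, 2.87 and 1.72 FPKM) and the lowest cahz (10.6, 7.605 and 2.01 FPKM). Like those 2 thrombocyte genes, epor passed the filter only through injured groups. The adult globin gene hbba1, chosen after its values were seen, was at 260, 365 and 172 FPKM. Another globin gene, hbaa1, was highest in CON, at 188, 178 and 135 FPKM, and is 1 of 3 erythrocyte genes in the set below 0 from CON to H9. Of 10 endothelial genes 9 were in the set, with medians of 0.60, -0.27 and -0.61, the highest being kdr in H9 (5.33, 12.6 and 5.49 FPKM) and tie1 in H18 (2.86, 4.84 and 4.62 FPKM) and the lowest in both plvapa (10.6, 4.24 and 3.51 FPKM). Of 11 epidermal genes 5 were in the set, with medians of -0.80, -1.31 and -0.51, the highest in both being krt8 (167, 175 and 227 FPKM) and the lowest krt5 (15.4, 8.13 and 1.18 FPKM). Sums were taken over all matched genes of a list. In the blood and vessel lists the H9 sum was the highest of the 3 groups, at 177 FPKM for thrombocytes, 620 FPKM for erythrocytes and 65.2 FPKM for endothelium, while the epidermal sums were 223, 208 and 245 FPKM.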
